A study of Mus musculus with 4 samples.

Results

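The genes described here are 42 regulators and markers of the cell cycle: the 8 E2F transcription factors, the pocket proteins that bind them, cyclins, cyclin-dependent kinases (CDKs), CDK inhibitors, and genes of DNA replication and mitosis. They were chosen by name from a list, and each was represented by the probe set naming that gene alone with the highest mean over the arrays. Of the 42 genes, 40 were measured in this way among 19421 genes in all. Ccnb1 was not analysed here, and Cdkn1a was covered only by a probe set that also names another gene. RNA came from whole retinas of mice carrying CAG-CreERTM, a tamoxifen-dependent Cre recombinase under the CAG promoter, which is broadly active and not restricted to rods. The knockout group was Nrlflox/flox; CAG-CreERTM, and the control group Nrlflox/+; CAG-CreERTM, whose cells kept an intact Nrl allele. Nrl encodes the leucine zipper factor that maintains rod photoreceptor identity. All mice in both groups had 4-hydroxytamoxifen by intraperitoneal injection each day from P42 to P44, and retinas were taken at P63. There were 2 arrays per group, each from a pool of 4 retinas of 2 animals. The question asked of these data was whether E2f6 changed together with genes of proliferation.

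E2F factors bind the promoters of genes needed for DNA synthesis and division. In a resting cell the pocket proteins Rb, p107 and p130 hold E2Fs in repressor complexes, and cyclin D and cyclin E kinases release them by phosphorylating the pocket protein. E2F6, like E2F7 and E2F8, lacks the pocket protein binding region and the activation domain and acts as a repressor, in the case of E2F6 together with Polycomb group proteins. The neurons of the mature mouse retina do not divide, and most cell cycle transcripts fall when retinal progenitors exit the cycle after birth, while microglia, and Müller glia to a limited extent, can re-enter it after injury.

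Promoters are shown for E2f6, the member that rose, and for the members whose window held at least 2 kinds of the E2F motifs searched, so that the E2F sites of replication genes can be set beside the E2f6 start. The windows are those of RefSeq on GRCm38.p6, from 250 bases before to 50 after an annotated start, and are written in the direction of transcription with E2F motif matches in capitals. They lie at chr12:16810715-16811014 (plus strand) for E2f6, chr1:20820263-20820562 (minus) for Mcm3, chr8:75109259-75109558 (plus) for Mcm5, chr1:128359656-128359955 (minus) for Mcm6 and chr5:138171834-138172133 (minus) for Mcm7.
E2f6: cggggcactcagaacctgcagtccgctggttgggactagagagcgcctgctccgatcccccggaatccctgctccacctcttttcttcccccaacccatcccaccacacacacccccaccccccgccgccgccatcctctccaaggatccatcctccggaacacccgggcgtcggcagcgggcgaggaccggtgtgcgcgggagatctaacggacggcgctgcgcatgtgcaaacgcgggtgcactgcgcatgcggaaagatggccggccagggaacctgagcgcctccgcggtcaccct
Mcm3: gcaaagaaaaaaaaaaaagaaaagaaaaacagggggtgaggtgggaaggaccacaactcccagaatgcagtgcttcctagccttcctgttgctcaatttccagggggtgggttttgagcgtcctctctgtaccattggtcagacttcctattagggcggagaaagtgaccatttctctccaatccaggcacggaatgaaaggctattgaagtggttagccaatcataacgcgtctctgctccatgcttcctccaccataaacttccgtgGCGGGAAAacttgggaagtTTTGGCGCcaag
Mcm5: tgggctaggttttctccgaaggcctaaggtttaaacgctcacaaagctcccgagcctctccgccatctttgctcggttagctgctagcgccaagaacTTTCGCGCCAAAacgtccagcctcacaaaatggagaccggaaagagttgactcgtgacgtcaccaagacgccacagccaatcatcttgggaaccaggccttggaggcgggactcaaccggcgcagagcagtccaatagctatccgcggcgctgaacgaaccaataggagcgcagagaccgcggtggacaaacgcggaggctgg
Mcm6: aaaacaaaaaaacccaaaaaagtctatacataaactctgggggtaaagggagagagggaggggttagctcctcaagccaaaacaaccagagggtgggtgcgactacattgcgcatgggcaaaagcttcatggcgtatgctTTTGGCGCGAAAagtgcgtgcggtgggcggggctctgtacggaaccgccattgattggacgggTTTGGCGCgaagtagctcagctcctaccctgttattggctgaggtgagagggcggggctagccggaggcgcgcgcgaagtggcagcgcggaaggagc
Mcm7: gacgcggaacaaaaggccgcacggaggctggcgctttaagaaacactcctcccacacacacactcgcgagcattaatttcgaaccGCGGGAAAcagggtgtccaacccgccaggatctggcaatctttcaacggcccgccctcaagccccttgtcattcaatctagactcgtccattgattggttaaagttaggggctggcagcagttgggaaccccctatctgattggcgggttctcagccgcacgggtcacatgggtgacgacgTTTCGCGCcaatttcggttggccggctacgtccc
The motifs TTTCCCGC, TTTGGCGC and TTTCGCGC were searched on both strands, and matches may overlap, as they do in Mcm5 and at the first site of Mcm6. The E2f6 window held none of them, which says only that these letters are not in this window. Of the 32 members with a window, 10 held at least 1 of the 3 motifs (31.2%), against 573 of 27025 genes with a window (2.12%). The matches fell on 4 of 7 replication genes, 3 of 6 E2F genes, 2 of 4 kinases and 1 of 2 pocket protein genes, and on 0 of 6 mitosis genes. TTTGAA, the cell cycle genes homology region found in promoters of late cell cycle genes, was in 34.4% of member windows and 20.2% of all, and in 4 of the 6 mitosis genes. A match is a description of the sequence and not a measured binding site.

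The deposited values are log2 levels, and no level marks absence of a transcript, so low levels and background signal cannot be separated. A log2 difference or log2 fold change is knockout minus control. Rcvrn, which encodes the photoreceptor protein recoverin, had levels of 10.05 to 10.42 on the 4 arrays. Array medians ran from 5.99 to 6.04. Nrl stood at 7.57 and 7.05 in knockout and at 8.21 and 8.13 in control, a log2 difference of −0.86 (SE 0.18, limma adjusted p = 0.289), in the direction of the labels. The replicate numbers followed the sex of the pools, with Xist at 4.07 and 4.09 in replicate 1 and at 10.66 and 10.47 in replicate 2 of knockout and control. The difference within each replicate number is therefore a comparison of pools alike in this respect. In whole tissue, a change in the number of cells of a type and a change in RNA per cell cannot be told apart.

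E2f6 was higher in the Nrl knockout. The knockout pools had levels of 7.74 and 7.76, and the control pools 6.39 and 6.57. Both knockout pools lay above both controls, and the gap between the groups was wider than the spread within either. The means were 7.75 ± 0.01 (SD, n = 2) and 6.48 ± 0.13 (SD, n = 2), a log2 difference of 1.27 (SE 0.11, 95% interval 1.0 to 1.53), or 2.40-fold with an interval of 2.0 to 2.89 (limma adjusted p = 0.0245 over all genes). The difference was 1.35 in replicate 1 and 1.18 in replicate 2. Of all 19421 genes, 0.139% were called higher at an adjusted p under 0.05, and E2f6 ranked 16 among those 27 by size and 16 among all genes by p. Leaving out any single array kept the log2 fold change between 1.17 and 1.36 but ended the call, with adjusted p values from 0.134 to 0.296. With the replicate number, which followed sex, as a block the log2 difference was again 1.27 but was not called (limma adjusted p = 0.0656). A single probe set reports E2f6, so its transcript forms cannot be separated.

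Among the other E2F factors none passed the test. E2f1, an activator of S phase genes, came nearest. Its level was 5.58 and 5.86 in knockout and 5.27 and 5.40 in control, so the pools did not overlap, with a log2 difference of 0.39 (SE 0.13, limma adjusted p = 0.616). The other activators were E2f2, at −0.10 (95% interval −0.40 to 0.21), and E2f3, at 0.18 (−0.17 to 0.53), and their pools overlapped. A second probe set of E2f3 had 0.04. E2f4 and E2f5, the repressors that act with p107 and p130, had log2 fold changes of 0.07 (−0.28 to 0.41) and −0.12 (−0.39 to 0.16). E2f7 and E2f8, repressors that bind DNA without a DP partner, had 0.03 and −0.09. E2f8 levels were 3.63 and 3.49 in knockout and 3.63 and 3.66 in control, and the knockout pools lay below by less than the difference between them. Thus 1 of the 8 E2F genes rose, 0 fell, and the median log2 fold change of the group was 0.05.

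**Figure D1:**
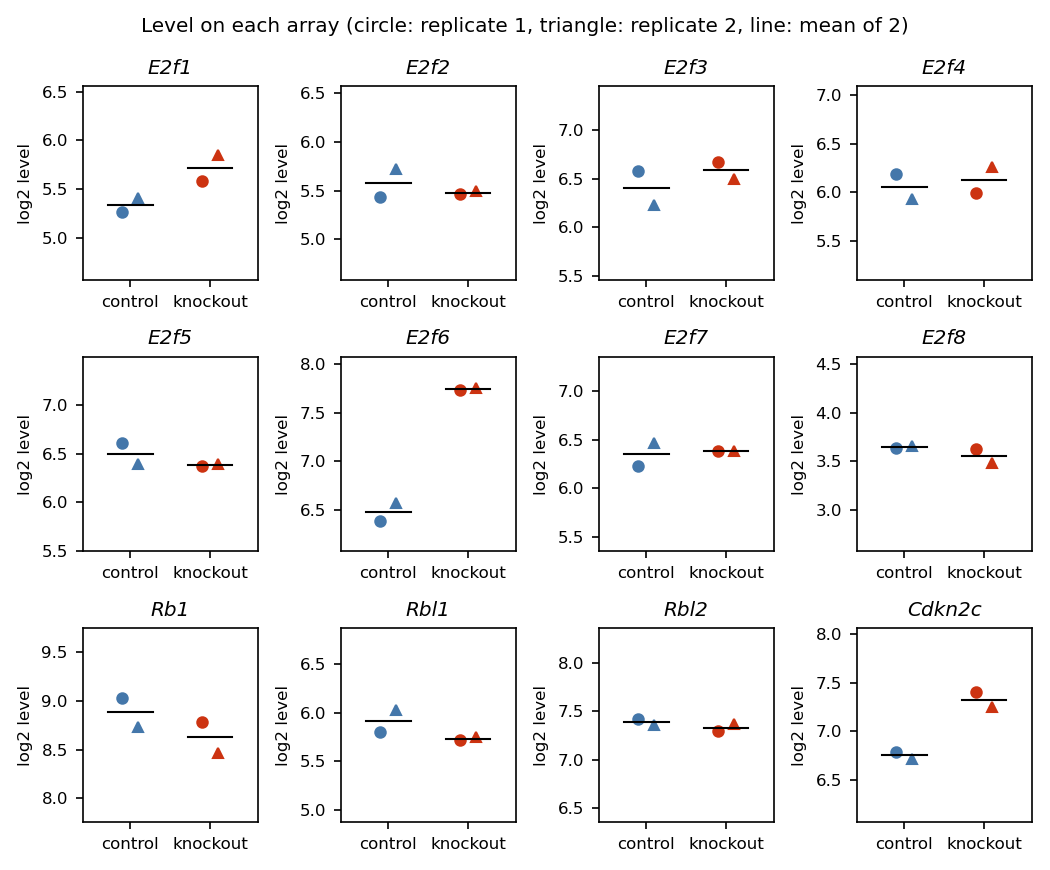
Log2 level of the 8 E2F genes, the 3 pocket protein genes and Cdkn2c on each array (vertical axis, each panel spanning the same range of 2 log2 units), by group, with circles for replicate 1, triangles for replicate 2 and a line at the mean of 2 pools. E2f6 sits at 7.74 and 7.76 in knockout against 6.39 and 6.57 in control, while the E2f2, E2f3, E2f4, E2f5 and E2f7 pools overlap.

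The pocket protein genes all had knockout means below control, and none passed. Rb1, which encodes the retinoblastoma protein, had levels of 8.78 and 8.47 in knockout and 9.03 and 8.73 in control. The groups overlapped, and replicate 2 was lower than replicate 1 in each. Its log2 fold change was −0.26 (SE 0.16, 95% interval −0.64 to 0.12, limma adjusted p = 0.831). The knockout was lower by a similar amount in each replicate number, at −0.25 and −0.27. Rbl1 (p107) had −0.18 (−0.46 to 0.10) and non-overlapping pools, and Rbl2 (p130), the pocket protein typical of resting cells, had −0.06 (−0.30 to 0.18).

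The CDK inhibitors did not move as a group. Cdkn2c encodes p18INK4c, which blocks the cyclin D kinases CDK4 and CDK6. Its level was 7.41 and 7.25 in knockout and 6.79 and 6.72 in control, and the pools did not overlap. The log2 fold change of 0.57 (SE 0.11, 95% interval 0.31 to 0.83), or 1.49-fold, had an unadjusted limma p of 0.00164 and an adjusted p of 0.241, so it did not pass over all genes. It was higher in both replicate numbers, by 0.62 and 0.53. Cdkn1b (p27) had levels of 9.77 and 9.64 in knockout and 9.96 and 9.58 in control, and the groups overlapped (−0.06, 95% interval −0.43 to 0.30). Cdkn1c (p57) had −0.21 (−0.47 to 0.06), with its knockout pools below both controls. The probe set that names Cdkn1a (p21, a p53 target) together with 4930567H12Rik had levels of 4.78 and 5.47 in knockout and 4.92 and 5.15 in control, a log2 difference of 0.09 (−0.47 to 0.66), and the signals of the 2 genes cannot be told apart in it.

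Cyclins and their kinases showed no call (limma, 0 of 11, also 0 at an unadjusted p under 0.05). The shares over all genes were 0.201% called and 7.07% at an unadjusted p under 0.05. The D cyclins start the passage through G1, and their log2 fold changes were 0.11 for Ccnd1 (95% interval −0.13 to 0.36), 0.07 for Ccnd2 and −0.034 for Ccnd3. Ccnd1 levels were 6.58 and 6.47 in knockout and 6.38 and 6.44 in control, a gap between groups of less than the difference between the knockout pools. Cyclin E drives entry into S phase, and Ccne1 and Ccne2 had 0.09 each. Cyclin A acts in S phase and G2, and Ccna2 had −0.17 (−0.42 to 0.07), with levels of 6.36 and 6.28 in knockout below 6.47 and 6.53 in control. Ccnb2, a mitotic cyclin, had 0.0056 (−0.27 to 0.28). Of the kinases, Cdk1, which drives mitosis, had 0.10 (−0.21 to 0.42), Cdk2 −0.13 (−0.50 to 0.24), and the cyclin D partners Cdk4 and Cdk6 −0.08 and 0.07. The pools of all 4 kinases overlapped, as did those of 12543 of all 19421 genes.

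No gene of DNA replication passed the test (limma). The MCM proteins form the helicase that opens replication origins, and their transcripts are classic E2F targets. Mcm6 had the largest difference, with levels of 5.92 and 5.51 in knockout and 5.53 and 5.35 in control. The pools overlapped, and the log2 fold change was 0.28 (SE 0.16, 95% interval −0.11 to 0.67, limma adjusted p = 0.815). Without knockout replicate 1 it was 0.075, and without knockout replicate 2 it was 0.49. Mcm3 had 0.12 and Mcm2, Mcm4, Mcm5 and Mcm7 lay between −0.07 and −0.04. The Mcm3, Mcm5, Mcm6 and Mcm7 windows printed above each hold 2 kinds of E2F motif, and none of these 4 genes passed. As 0.201% of all genes passed in either direction, the lack of a call among 4 genes does not set them apart from other genes. The mean signals of these 4 genes also lay under the median of all genes, where levels may lie near background. Pcna, the sliding clamp of DNA polymerase, had levels of 10.42 and 10.22 in knockout and 10.11 and 10.30 in control, and a second probe set differed by 0.03. Rrm2, the regulated subunit of ribonucleotide reductase, had −0.06 (−0.44 to 0.32) with −0.35 in replicate 2 and 0.22 in replicate 1. For all 8 replication genes the groups overlapped, as they did for 12543 of all 19421 genes.

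No mitosis gene passed either, and their differences lay on either side of 0. Mki67, which encodes the proliferation marker Ki-67, had levels of 4.26 and 4.62 in knockout and 4.25 and 4.37 in control, a log2 difference of 0.13 (SE 0.14, 95% interval −0.22 to 0.48). Top2a, the topoisomerase of dividing cells, had 4.11 and 4.03 in knockout and 4.05 and 4.06 in control, a difference of 0.015 (−0.22 to 0.25). Neither gene differed beyond the spread of its pools. Aurka, a spindle pole kinase, had 0.15 (−0.08 to 0.38) and was the only mitosis gene whose groups did not overlap, at 6.32 and 6.33 against 6.15 and 6.20. Over all genes the groups did not overlap for 35.4%. Aurkb and Birc5, partners in the chromosomal passenger complex, had 0.06 and 0.04. Plk1, a kinase of mitotic entry, had −0.13 (−0.47 to 0.21). Bub1, a checkpoint kinase at kinetochores, had −0.14 (−0.60 to 0.33) and the widest spread of any member, at 3.56 and 4.12 in knockout and 3.90 and 4.05 in control.

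Set together, the 15 replication and mitosis genes had mean log2 levels of 5.53 and 5.56 in knockout and of 5.52 and 5.53 in control, with a median log2 fold change of 0.015. None was called by limma, and 0 had an unadjusted p under 0.05, beside 0.201% and 7.07% of all genes. In a list of this size, counts of 0 do not set these genes apart from other genes. Of these 15, 13 had a mean signal under the 50th percentile of all genes, and their levels may lie near background. Over all 40 measured members 20 were above that percentile, E2f6 and Cdkn2c among them. The intervals of all 39 members other than E2f6 lay inside a 2-fold change in either direction, and the highest upper bound, 0.83 for Cdkn2c, lay below the lower bound of 1.0 for E2f6. These intervals are not adjusted for the number of genes.

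Counted over the list, 1 of 40 members rose (E2f6), 0 fell and 39 did not pass, against 0.201% of all genes called in either direction (0.139% higher and 0.0618% lower). This count is from the fit without the replicate block, and with the block 0 of 40 members were called. The members with an unadjusted p under 0.05 numbered 3 (E2f1, E2f6 and Cdkn2c, all higher), or 7.50%, near the background of 7.07% (3.71% higher and 3.37% lower). The groups did not overlap for 5 members with knockout higher and 4 with knockout lower, 22.5% in all, below the 35.4% of all genes (17% higher and 18.4% lower). The median log2 fold change was 0.01, beside −0.0026 over all genes, and 21 members lay above 0 and 19 below. The median size of the difference regardless of sign was 0.10 for members and 0.09 for all genes.

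**Figure D2:**
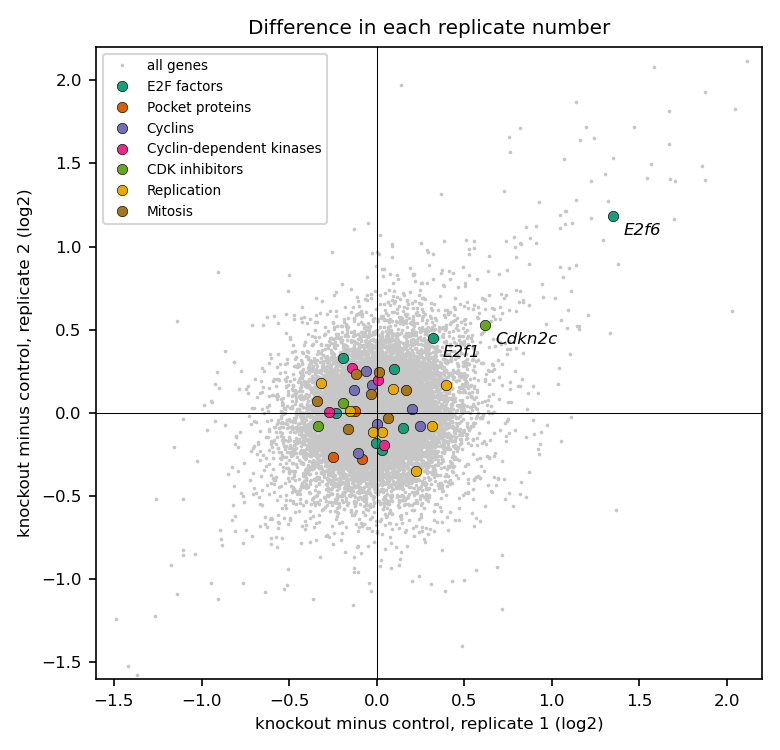
Knockout minus control log2 difference in replicate 1 (horizontal axis) and replicate 2 (vertical axis) for all genes (grey) and for the 40 members coloured by role; 11 genes lie outside the plotted range. E2f6 lies at 1.35 and 1.18 and Cdkn2c at 0.62 and 0.53, and the remaining members fall within the grey cloud around 0.

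Partners and targets of E2F6 were examined next. E2F6 binds DNA with a DP protein and recruits a variant Polycomb complex containing PCGF6, L3MBTL2, MGA and MAX. Of 12 genes of this complex 0 were called by limma and 0 had an unadjusted p under 0.05, with a median log2 fold change of −0.037. The smallest p values were those of Max, at −0.15 (adjusted p = 0.845), and L3mbtl2, at 0.17 (adjusted p = 0.851). Another list held the DP partners, genes of the DREAM complex, which pairs pocket proteins with E2F4 in resting cells, and Mybl2. Its 8 measured genes also had 0 calls and 0 at an unadjusted p under 0.05, with Lin9 at 0.30 and Mybl2 at −0.23. Germline genes are held silent in somatic cells by E2F6 complexes. Of 14 such genes 0 were called and 0 had an unadjusted p under 0.05, 10 lay below 0 and 4 above, and the median was −0.09. The α-tubulin genes Tuba3b and Tuba3a, with the smallest p values, had 0.26 and −0.20. Sequence shared between these relatives makes their separate values uncertain. Only 2 of the 14 were above the 50th percentile of mean signal. Of all genes 0.201% were called and 7.07% had an unadjusted p under 0.05. Counts of 0 in lists of this size therefore do not set these genes apart from other genes.

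Other cell cycle genes were read from lists of the same pathway. Of 21 further S phase genes limma called 0 and 2 (9.52%, against 7.07% of all genes) had an unadjusted p under 0.05. They were Gins1, of the replicative helicase, at 0.42 (adjusted p = 0.648), and Orc1, of the origin recognition complex, at −0.25 (adjusted p = 0.678). Of 20 further mitosis genes limma called 0 and 2 (10%) had an unadjusted p under 0.05, and these 2 pointed in opposite directions. Bub1b, which encodes the spindle checkpoint protein BUBR1, had levels of 8.35 and 8.64 in knockout and 6.65 and 7.24 in control. Its pools did not overlap, and its log2 fold change of 1.55 (SE 0.21, 95% interval 1.04 to 2.06) was larger than that of E2f6 but missed the threshold (adjusted p = 0.0965). Its control pools lay further apart than those of E2f6. Mad2l1, another checkpoint protein, had 7.54 and 7.35 in knockout and 8.03 and 7.98 in control, a log2 difference of −0.56 (SE 0.11, adjusted p = 0.270). Their checkpoint partner Bub1, given above, had overlapping groups.

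Inhibitors and p53 targets outside the member list had 0 calls among 11 by limma and 3 at an unadjusted p under 0.05. These 3 were 27.3% of the list, against 7.07% of all genes. Gadd45b, a stress-induced gene of the Gadd45 family, had 5.68 and 6.10 in knockout and 5.19 and 5.22 in control, a log2 difference of 0.69 (SE 0.15, adjusted p = 0.339). Gadd45a, its p53-responsive relative, had −0.33 (SE 0.11, adjusted p = 0.602). The third was Cdkn2d, an INK4 inhibitor like Cdkn2c, at 0.24 (adjusted p = 0.696), a gene of the list that is named because its value was seen. Among 12 other cyclins and kinases limma called 0, and 0 had an unadjusted p under 0.05, with Ccng2 at 0.12 and Mycn at −0.10. Over all 7 lists, 0 of 98 measured genes were called and 7 (7.14%) had an unadjusted p under 0.05, close to the 7.07% of all genes.

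**Figure D3:**
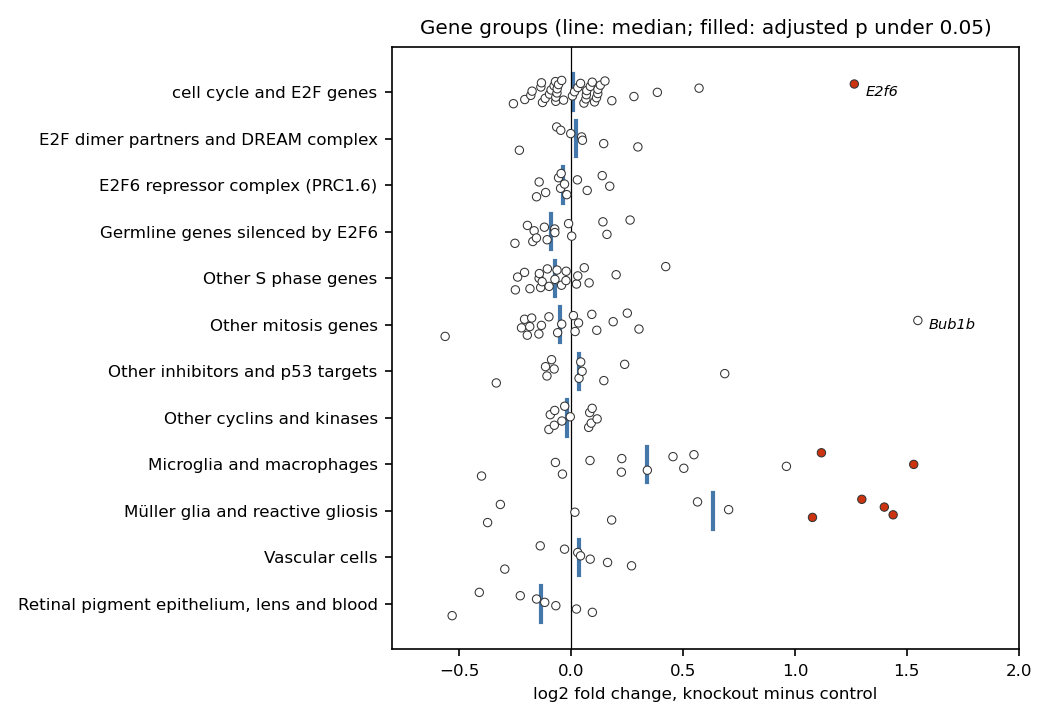
Log2 fold change, knockout minus control (horizontal axis), of each gene of the cell cycle and E2F list, of 7 other cell cycle lists and of 4 marker lists, with a line at each list's median; filled points passed an adjusted p under 0.05. The cell cycle lists have medians between −0.09 and 0.03 with E2f6 and Bub1b standing to the right, while the microglia and Müller glia lists have medians of 0.34 and 0.63. The 4 filled points of the Müller glia list, A2m, Cebpd, Osmr and Stat3, were not among the 6 planned Müller glia markers. They enter the median of 0.63, and the list was chosen with earlier results of these data known. The 6 planned markers ranged from −0.37 (Glul) to 0.70 (Gfap), and none was called.

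Some genes in the lists for microglia, for Müller glia and gliosis, and for photoreceptors were called on the same arrays. The lists for vascular cells and for pigment epithelium, lens and blood had no call. Sums of levels are given for replicate 1 and then replicate 2. Of 13 microglia and macrophage markers 2 were called higher by limma (Ctss and Tyrobp), against 0.139% of all genes. Of the 13, 10 lay above 0 and 3 below. Tmem119, at −0.40 (limma adjusted p = 0.403), and Itgam, at −0.04, had knockout pools below both controls. Trem2, at −0.07, had overlapping pools. The levels summed over the markers on the linear scale were 1401 and 1331 in knockout and 800.1 and 815.6 in control. Ctss and Tyrobp had the highest levels of the list on every array and weigh most in these sums. Of 10 Müller glia and gliosis markers 4 were called higher (A2m, Cebpd, Osmr and Stat3), against 0.139% of all genes. In this list 8 lay above 0 and 2 below, and the sums were 1967 and 2010 in knockout and 1527 and 1503 in control. The 2 below 0 were Glul (glutamine synthetase) at −0.37 (adjusted p = 0.518), with separate pools, and Rlbp1 (the retinal binding protein CRALBP) at −0.32 (adjusted p = 0.783), with overlapping pools. The 6 not called were these 2, Slc1a3 (0.02), Sox9 (0.18), Vim (0.56) and Gfap (0.70), the genes planned as Müller glia markers. A2m, Cebpd, Osmr and Stat3 were not in that plan, and the list was chosen with earlier results of these data known. All 4 calls of this list therefore come from genes outside the plan, and its sums include these genes. Over 10 photoreceptor markers 1 was called lower (Gnat1) and 1 higher (Gnat2), against 0.0618% and 0.139% of all genes. Of the 10, 8 lay below 0, and the sums were 6971 and 7189 in knockout and 13381 and 12813 in control. Gnat1 (rod transducin) carried most of that gap: without it the sums were 6268 and 6325 in knockout and 6962 and 6694 in control, and the median log2 fold change of the 10 markers was −0.37. The sums without Gnat1 still hold the 2 markers above 0, Gnat2 (1.10) and Arr3 (0.26). Prph2 (−0.61), Pde6b (−0.82) and Nrl (−0.86) had knockout pools below both controls but were not called. Vascular markers had 0 calls among 8 by limma and 0 at an unadjusted p under 0.05, and pigment epithelium, lens and blood markers 0 among 8 and 1, Crygs, at an unadjusted p under 0.05. Over all genes 0.201% were called and 7.07% had such an unadjusted p. The part of these markers' cells in the E2f6, Cdkn2c and Bub1b values was not tested.

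The genes next to E2f6 on its chromosome were compared with it. In RefSeq order the nearest measured neighbours are Ntsr2 and Greb1 on one side and Pqlc3 and 2410004P03Rik on the other. Their log2 fold changes were −0.09, 0.17, 0.24 and 0.13, and none passed (limma adjusted p of 0.787 or more). The neighbours of Cdkn2c, namely Rnf11, 4930522H14Rik, Faf1 and Dmrta2, had −0.03, −0.23, −0.012 and −0.038, and none passed (limma adjusted p of 0.854 or more). These neighbours were chosen after the values of E2f6 and Cdkn2c were seen.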

How the data were processed

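RNA of whole mouse retina was measured on 4 arrays, 2 knockout and 2 control, grouped by the sample titles. For each array the authors deposited a log2 level per probe set (21897 in all). The log2 scale was taken from the range of the values. Per the submitters' processing notes, affy and limma were used. The sources used here do not give the background correction or the normalization. Gene names came from the platform annotation (20877 with 1 symbol, 175 with several, 845 with none), and symbols were checked by gene ID against RefSeq names of GRCm38.p6 (36 IDs not matched, 0 symbols changed). A gene was represented by its single-symbol probe set with the highest mean, with no filter on low signal.

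The test was limma (version 3.58.1, R 4.3.3) with lmFit and eBayes (two-sided, genotype as the only term, Benjamini-Hochberg over all 19421 genes). A call is an adjusted p under 0.05, and intervals are at 95% from the moderated fit. Since each replicate is a pool of animals, p-values rest on the spread between pools, moderated by that of other genes. The 2 pools of each group differed in sex by Xist. Without the block this spread therefore also holds any difference between the sexes. An exact permutation test of 2 against 2 cannot give a p under 0.333. Precision is limited by the number of arrays. The fit was tested on simulated data with known changes. Members and lists were chosen with earlier results of these data known. All 42 members are named, with up to 4 called genes of each other list or its 2 genes of smallest p, where a result turned on them. Alternatives were quantile normalization, a filter at the 50th percentile of mean signal, the mean of a gene's probe sets, a variance trend, the replicate number as a block, and leaving out each array. Promoter windows came from RefSeq (GRCm38.p6). They matched 32 members, and not every window is at the main start of its gene. Protein sequences were not used here.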

Additional observations from a re-analysis of the deposited data

How the results depend on the processing

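E2f6 kept its direction under all 9 alternatives and its call under 4: quantile normalization (1.26, adjusted p = 0.0177), the 50th percentile filter (1.27, adjusted p = 0.00399), the mean of probe sets (1.27, adjusted p = 0.0253) and a variance trend (1.27, adjusted p = 0.00173). With the replicate number as a block it was 1.27 with an adjusted p of 0.0656, so 0 members were called, and limma called 8 genes in all. In that fit 5 of the 40 measured members had an unadjusted p under 0.05 (E2f1, E2f6, Rb1, Cdkn2c and Mcm6), beside 1607 of all 19421 genes. Same-numbered pools shared their sex by Xist and deviated together across genes (Pearson r = 0.24), while the labels name no shared animal or litter for a number. Without each array in turn E2f6 ranged from 1.17 to 1.36 (adjusted p from 0.134 to 0.296), 0 members were called, and the genes called in all ranged from 0 to 11, against 39 with all arrays. A group left with 1 array is assumed to vary like the other. The count over all genes was 89 with the filter and 128 with a variance trend. The filter tests fewer genes and also changed the moderated variance, with an SE for E2f6 of 0.095 against 0.109 without it. The cause of either count was not tested. The median of the members was 0.048 with the filter, which left 20 of them, and ranged from −0.017 to 0.023 without single arrays. Of 340 values of single members under an alternative, 27 changed sign, in 21 genes, none of them called in any fit. Ccnb2 changed sign after quantile normalization (−0.0048). E2f1, E2f3, Rb1 and Mcm6 kept their sign and were not called. Without single arrays the range was 0.25 to 0.52 for E2f1, 0.011 to 0.35 for E2f3, −0.42 to −0.10 for Rb1 and 0.075 to 0.49 for Mcm6. The other sign changes came without single arrays, where log2 fold changes ranged from −0.066 to 0.18 for Aurkb, −0.073 to 0.16 for Birc5, −0.41 to 0.14 for Bub1. They ranged from −0.10 to 0.11 for Ccnb2, −0.0026 to 0.17 for Ccne1, −0.040 to 0.23 for Ccne2. They ranged from −0.039 to 0.25 for Cdk1, −0.33 to 0.067 for Cdk2, −0.18 to 0.031 for Cdk4. They ranged from −0.20 to 0.33 for Cdk6, −0.26 to 0.13 for Cdkn1b, −0.24 to 0.047 for E2f2. They ranged from −0.064 to 0.20 for E2f4, −0.088 to 0.15 for E2f7, −0.27 to 0.13 for Mcm2. They ranged from −0.14 to 0.060 for Mcm5, −0.18 to 0.041 for Mcm7, −0.050 to 0.31 for Mki67. They ranged from −0.27 to 0.015 for Plk1, −0.26 to 0.13 for Rrm2, −0.027 to 0.056 for Top2a.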
